A study of Rattus norvegicus with 12 samples.

Results

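The mitochondrial carrier family was taken as every array probe whose gene symbol was Slc25a followed by digits, and the rule used no measured value. It found 35 probes for 33 genes among the 22517 probes of the array, of which 13787 had a gene symbol. The current rat annotation (GRCr8) names 49 such genes, and the other 16 had no probe on the array. Left ventricular RNA was profiled in 6 VEGF-B TG rats and 6 WT littermates, all male Wistar rats of 2 months of age, on Illumina RatRef-12 BeadChips with 1 heart per array. The TG rats, of the outbred HsdBrl:WH background, carried VEGF-B under the αMHC promoter, which drives expression in cardiomyocytes, while the measured RNA came from whole left ventricle with all of its cell types. In such tissue, fewer cells of a type and less RNA per cell cannot be told apart. The comparison asked whether transcripts of the carriers differed in hearts that overexpress this ligand of VEGF receptor-1, which the study linked to vessel growth and to the fuel use of the heart.

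Mitochondrial carriers are proteins of the inner mitochondrial membrane, a membrane that small charged molecules do not cross on their own. Most of them exchange a molecule of the cytosol for a molecule of the matrix, and each carrier has its own substrates, among them nucleotides, phosphate, acylcarnitines, organic acids, amino acids and cofactors. The heart depends on them to send ATP out to the contracting myofibrils, to bring ADP, phosphate and fatty acyl groups in, and to pass reducing equivalents across the membrane.

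Slc25a29, the carrier of basic amino acids, had the largest difference in the family and was lower in VEGF-B TG hearts. Slc25a10, the carrier that exchanges dicarboxylates such as malate and succinate for phosphate, Slc25a35, which has no settled substrate, and Slc25a15, which exchanges ornithine for citrulline, also passed the test and were lower, although Slc25a10 was not above background in any TG heart. The carriers that serve oxidative phosphorylation most directly, Slc25a3 for phosphate and Slc25a4 for ADP and ATP, did not pass it, and neither did the acylcarnitine carrier Slc25a20, whose adjusted p was just above the threshold. All differences are on the log2 scale, TG minus WT, with the standard error (SE), from limma with Benjamini-Hochberg adjustment over all tested probes and a threshold of 0.05 (6 hearts per group). Values of single hearts are normalized log2 signals, and since each probe has its own brightness they compare hearts and not genes.

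The sequence before the annotated start of 4 genes is given for orientation, because they are the member with the largest difference (Slc25a29) and the carriers of acylcarnitine, phosphate and ADP/ATP, none of which passed the test. The 250 bases before the start are from RefSeq (GRCr8) and run 5′ to 3′ on the strand of the gene, with the motif CCGGAAG, which GABP proteins can bind, in capitals.
Slc25a29, chr6:133517198-133517447, minus strand: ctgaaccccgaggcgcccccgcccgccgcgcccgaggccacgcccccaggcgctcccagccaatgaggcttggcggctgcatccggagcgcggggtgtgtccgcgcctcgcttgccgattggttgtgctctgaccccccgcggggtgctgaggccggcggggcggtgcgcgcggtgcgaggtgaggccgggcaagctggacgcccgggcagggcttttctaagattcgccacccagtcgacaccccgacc
Slc25a20, chr8:118243323-118243572, plus strand: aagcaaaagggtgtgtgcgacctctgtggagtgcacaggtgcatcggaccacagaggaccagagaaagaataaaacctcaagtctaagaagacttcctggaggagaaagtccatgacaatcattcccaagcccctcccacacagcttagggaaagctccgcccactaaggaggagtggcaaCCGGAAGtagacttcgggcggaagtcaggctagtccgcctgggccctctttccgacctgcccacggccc
Slc25a3, chr7:27506628-27506877, minus strand: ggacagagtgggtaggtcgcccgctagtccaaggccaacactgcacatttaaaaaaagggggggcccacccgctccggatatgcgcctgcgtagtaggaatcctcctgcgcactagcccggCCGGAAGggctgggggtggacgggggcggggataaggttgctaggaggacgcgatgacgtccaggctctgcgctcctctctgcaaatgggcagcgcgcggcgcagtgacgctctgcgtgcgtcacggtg
Slc25a4, chr16:52805271-52805520, plus strand: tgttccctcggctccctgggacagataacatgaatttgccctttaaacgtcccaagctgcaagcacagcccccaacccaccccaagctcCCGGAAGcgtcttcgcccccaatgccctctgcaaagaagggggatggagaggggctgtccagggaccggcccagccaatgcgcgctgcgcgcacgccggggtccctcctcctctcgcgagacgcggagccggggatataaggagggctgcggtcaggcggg
Read on both strands, CCGGAAG was in this window of 5 of the 28 family genes with a promoter entry (17.9%), namely Slc25a3, Slc25a4, Slc25a14, Slc25a20 and Slc25a38, and in 7.27% of all 33469 promoters. The E-box CACGTG was in 2 of the 28, Slc25a2 and Slc25a51, and in 5.59% of all promoters. The ERR element TCAAGGTCA was in 0 of the 28 and in 0.388% of all promoters. The windows of the 4 genes that passed the test held 0 matches to these 3 motifs, none of which contains another. A match only describes the sequence.

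Of the 35 probes, 25 were detected on at least 6 of the 12 arrays and were tested, each for a different gene. Among them, 20 were detected on all 12 arrays. The other 5, Slc25a10, Slc25a21, Slc25a23, Slc25a26 and Slc25a42, were detected on 6 to 11 arrays and lay near background, so the size of their differences is less certain. The 10 probes that were not tested came from Slc25a2, Slc25a14, Slc25a22, Slc25a24, Slc25a27, Slc25a40, Slc25a41 and Slc25a47, with 1 probe each, and from Slc25a30, of whose 3 probes 2 were detected on no array and 1 on all 12. Slc25a14 was detected on 5 arrays and Slc25a40 on 3, and the other 8 untested probes on none. Slc25a14 and Slc25a27 are known from brain, Slc25a47 from liver and Slc25a22 as a glutamate carrier. The genes with no probe included both aspartate-glutamate carriers, Slc25a12 and Slc25a13, the mitoferrins Slc25a28 and Slc25a37, and the branched-chain amino acid carrier Slc25a44. The malate-aspartate arm of the family was thus covered only in part, and the mitoferrins, its iron arm, not at all.

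Of the 25 tested members, 4 were lower and 0 higher in VEGF-B TG hearts. That is 16% of them, where 21.9% of all 9054 tested probes were called in either direction, 11.6% higher and 10.3% lower. The share of members called in either direction was thus not above that of the array. The share called lower, 16%, was above the 10.3% of the array, but it rests on only 4 calls. The 4 include Slc25a10, which was detected on the WT arrays alone and so met the filter only through the group where it was high. Without it 3 of 24 members were called, so the 16% is not read as an excess of lower calls. At an unadjusted p under 0.05, 8 members were lower and 3 higher. That cut is loose here: the last of these members, Slc25a51 (limma unadjusted p = 0.0494), ranked 3115 by p among the 9054 tested probes. The sign was uneven: 19 of the 25 differences were below 0 (76.0%, against 51.7% of all tested probes), with a median of -0.12 in the family and -0.01 over all tested probes. The median absolute difference was 0.17 in the family and 0.14 over all tested probes. All 6 TG values lay below all 6 WT values for 2 members (8.0%), Slc25a29 and Slc25a10, the latter at background in TG hearts. Over all tested probes, 10.8% had groups that did not overlap, 5.06% with TG lower and 5.74% with TG higher. Leaving out array TG3, the third TG heart, raised the number of lower members from 4 to 7, and leaving out any other array gave 3 to 5.

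**Figure D1:**
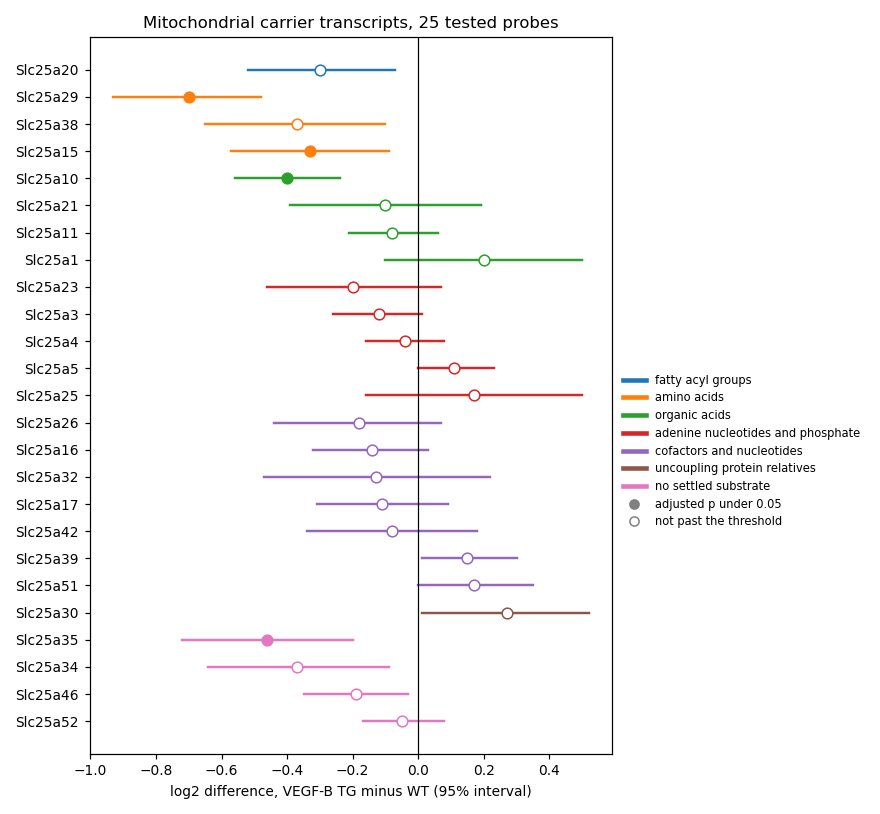
Log2 differences (VEGF-B TG minus WT) of the 25 tested carriers with 95% intervals, ordered and coloured by substrate class. Filled points, Slc25a29, Slc25a15, Slc25a10 and Slc25a35, passed an adjusted p of 0.05, and all 4 lie to the left of 0, with Slc25a10 at background in TG hearts.

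Of the 3 tested amino acid carriers, 2 were called lower, where 10.3% of all tested probes were. Their differences ran from -0.70 to -0.33, and members of other classes lay within that range, such as Slc25a35 at -0.46. The amino acid carriers Slc25a2 and Slc25a22 were detected on no array. Slc25a29 carries arginine, lysine and other basic amino acids. Its signal had a lowest, median and highest value of 8.13, 8.39 and 8.66 in TG hearts and of 8.83, 9.08 and 9.43 in WT hearts. Every TG heart was below every WT heart. The difference was -0.70 (SE 0.11, 95% interval -0.93 to -0.48, limma adjusted p = 0.000321), so that its signal fell by 38.6%. In the GRCr8 order of protein-coding genes its neighbour on chromosome 6 is another carrier, Slc25a47, which was detected on no array.

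Slc25a15 moves ornithine into the matrix in exchange for citrulline, a step of the urea cycle in liver. Its values were 8.66, 8.77 and 9.33 in TG and 8.93, 9.18 and 9.43 in WT hearts. The groups overlapped through TG3 alone, at 9.33, since the other 5 TG hearts lay at 8.66 to 8.87, below all WT hearts. The difference was -0.33 (SE 0.11, 95% interval -0.57 to -0.09, adjusted p = 0.047), close to the threshold, and without TG3 it was -0.43 (adjusted p = 0.003). The call held in 2 of the 12 fits that each left out 1 array, with adjusted p-values between 0.003 and 0.1. Slc25a38, which brings in glycine for heme synthesis, had values of 6.63, 7.17 and 7.61 in TG and 7.33, 7.52 and 7.75 in WT hearts. TG3 was again the highest TG heart, and the groups overlapped. Its difference of -0.37 (SE 0.13, adjusted p = 0.0526) did not pass the test. Of the 12 fits that each left out 1 array, 2 called it, without TG3 (-0.47, adjusted p = 0.0104) and without WT5 (-0.41, adjusted p = 0.048). Leaving out the highest TG heart can only widen a decrease. Without TG6, the lowest TG heart, the difference was -0.27 (adjusted p = 0.0928).

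Of enzymes that share ornithine with Slc25a15, 3 were tested, and 2 were higher in TG hearts, where 11.6% of all tested probes were higher. Odc1, which makes putrescine from ornithine, was 0.51 higher (SE 0.08, adjusted p = 0.000552), and Aldh18a1, which makes the precursor of proline and ornithine, was 0.31 higher (SE 0.10, adjusted p = 0.0438). The number called among these 3 fell to 1 under several other settings. Oat, the mitochondrial ornithine aminotransferase, had a difference of -0.08 (adjusted p = 0.734). The urea cycle enzyme Otc and the arginase Arg2 were detected on no array.

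Among the 4 tested carriers of organic acids, 1 was called, where 21.9% of all tested probes were called in either direction. The probe of Slc25a10 was dim, with values of 5.93, 6.06 and 6.28 in WT hearts, where it was detected on all 6 arrays, and of 5.56 to 5.90 in TG hearts, where it was detected on 0 of 6. The TG values are thus at background and have only an upper bound, and the probe entered the test through the WT arrays alone. Detection on the WT arrays was itself weak, with detection p-values of 0.0158 to 0.0485. Against the lowest signals that counted as detected on the TG arrays, its signal was at least 1.15-fold lower in TG hearts. The limma adjusted p of 0.00189 belongs to the fitted difference, which uses the TG values at background, and does not test this bound. The fitted difference in the plots is not a measured size for this gene.

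Slc25a11 exchanges 2-oxoglutarate for malate and is an arm of the malate-aspartate shuttle, which moves reducing equivalents from cytosolic NADH into the matrix. It had a difference of -0.08 (95% interval -0.21 to 0.06, adjusted p = 0.431). The citrate carrier Slc25a1 had a difference of 0.20 (-0.10 to 0.50, adjusted p = 0.348), and Slc25a21, for 2-oxoadipate, one of -0.10 (adjusted p = 0.648). The intervals of the last pair were wide and leave room for changes as large as that of Slc25a15. Of 6 enzymes of the malate-aspartate and glycerophosphate shuttles, 1 was lower and 0 higher, where 10.3% of all tested probes were lower, with a median of -0.17. That was the cytosolic aspartate aminotransferase Got1, at -0.22 (SE 0.06, adjusted p = 0.0132), with all TG hearts below all WT hearts. The count of 1 rose to 3 without TG3 and also without array WT6, and to 2 or 3 under several other settings.

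The acylcarnitine carrier Slc25a20 is the step of the carnitine shuttle that brings fatty acyl groups through the inner membrane, between Cpt1 on the outer membrane and Cpt2 in the matrix. Its values were 9.21, 9.57 and 9.75 in TG and 9.62, 9.81 and 10.21 in WT hearts. The groups overlapped, with WT5 far above the other WT hearts. The difference of -0.30 (SE 0.11, 95% interval -0.52 to -0.07, adjusted p = 0.0574) was just short of the threshold. It passed under 6 of the 10 other settings that kept all arrays. Of these 6, no background correction and the deposited log2 table had nearly the same values. Of the 12 fits that each left out 1 array, it passed in 2, without TG3 and without WT6 (-0.34 and adjusted p = 0.0402 in each). The difference was -0.22 without WT5 (adjusted p = 0.112) and -0.23 without TG2 (adjusted p = 0.12).

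Of 8 tested partners of the carnitine shuttle, 5 were lower and 0 higher, where 10.3% of all tested probes were lower, with a median of -0.33. The study had described lower fatty acid metabolism genes on these samples, so this count is not independent evidence of its direction. Mlycd, which degrades malonyl-CoA, the inhibitor of Cpt1, was -0.45 (SE 0.08, adjusted p = 0.00106). Crat, which makes and splits short-chain acylcarnitines, was -0.61 on 1 of its 2 probes, the brightest tested (SE 0.13, adjusted p = 0.00309). Acsl1, the main acyl-CoA synthetase of heart, was -0.33 (SE 0.07, adjusted p = 0.00268). For Mlycd and Acsl1 every TG heart was below every WT heart. The other lower partners, named after their values were seen, were the muscle isoform of the outer-membrane transferase, Cpt1b (-0.38, adjusted p = 0.00399), and the carnitine importer of the plasma membrane, Slc22a5 (-0.34, adjusted p = 0.0285). Cpt2, which takes over the acyl group from Slc25a20, had a difference of -0.02 (adjusted p = 0.904) and the liver isoform Cpt1a one of 0.06 (adjusted p = 0.785).

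**Figure D2:**
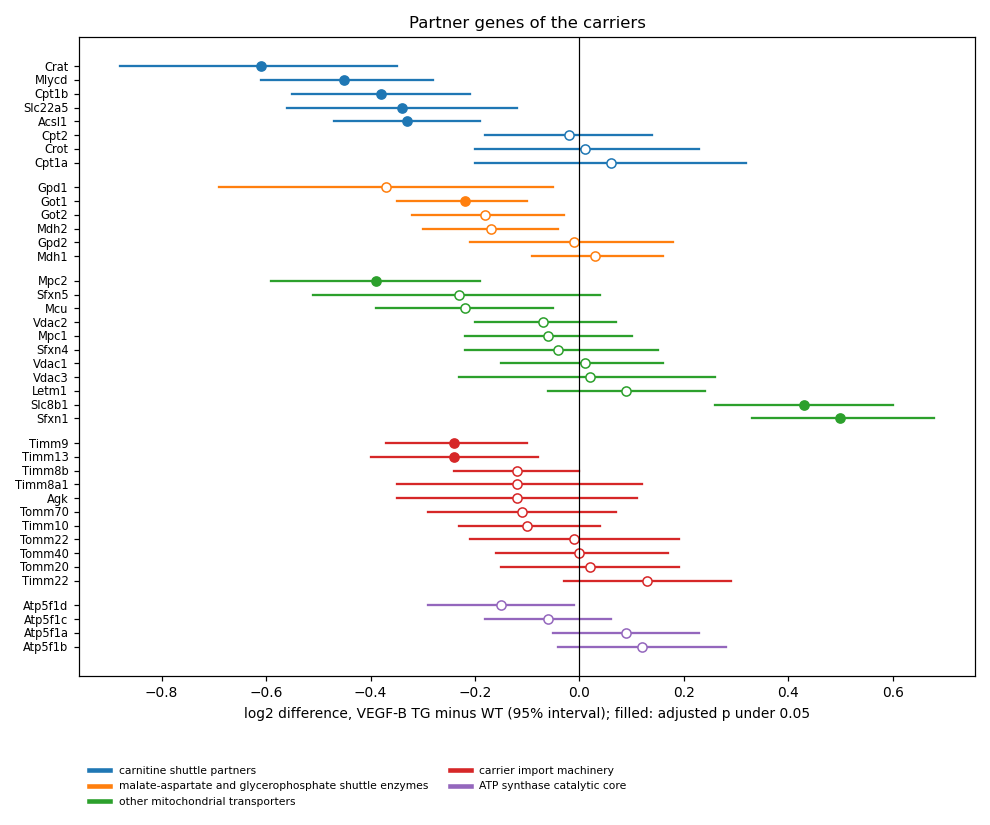
Log2 differences (VEGF-B TG minus WT) with 95% intervals for tested genes that work beside the carriers, coloured by list. Filled points passed an adjusted p of 0.05, as 5 of 8 carnitine shuttle partners did on the lower side, while 0 of 4 ATP synthase subunits did.

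Of the 5 tested carriers of adenine nucleotides and phosphate, 0 were called, where 21.9% of all tested probes were called in either direction. Slc25a4 is the ADP/ATP carrier of heart and skeletal muscle. Its values were 14.82, 14.88 and 14.95 in TG and 14.84, 14.89 and 15.04 in WT hearts. The groups lay on top of each other, with a difference of -0.04 (SE 0.06, adjusted p = 0.661) and a 95% interval of -0.16 to 0.08. Under cyclic loess normalization its sign turned, to 0.09 (adjusted p = 0.304).

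Slc25a3 supplies the phosphate, and also copper, that the matrix needs. Its values were 14.32, 14.56 and 14.63 in TG and 14.60, 14.66 and 14.70 in WT hearts. TG3 alone of the TG hearts reached into the WT range, and TG6 was far below the rest. The difference was -0.12 (SE 0.06, 95% interval -0.26 to 0.01, adjusted p = 0.178) under the reported setting. It was -0.16 (SE 0.07) under median scaling and -0.07 (SE 0.06) under cyclic loess, so the interval does not bound a decrease under every setting. The ATP synthase subunits that use the phosphate and ADP gave 0 calls of 4 in either direction, with a median of 0.02.

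Slc25a5 is the ADP/ATP carrier isoform of proliferating cells. Its values were 13.22, 13.30 and 13.38 in TG and 13.14, 13.18 and 13.24 in WT hearts, and the groups overlapped little. The difference of 0.11 (SE 0.05, adjusted p = 0.151) did not pass the test. The 9 pseudogenes named for Slc25a5 in GRCr8 could share its probe, so its signal is uncertain. Within each array, the log2 ratio of Slc25a5 to Slc25a4 was between -1.67 and -1.50 in TG hearts (median -1.57) and between -1.86 and -1.63 in WT hearts (median -1.73). The ratio of the probes was 0.15 higher in TG hearts (SE 0.04, exact permutation p = 0.00433, 2-sided, over 924 splits of the 12 arrays), a comparison chosen after the values were seen. It did not hold under median scaling (0.08, exact permutation p = 0.169) or cyclic loess (0.05, exact permutation p = 0.377). Proliferation markers were higher for 4 of 4 tested genes, where 11.6% of all tested probes were higher. Ccnb1 was detected on no array and Rrm2 was not tested. Whether these markers and the ratio are related across hearts was not tested.

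The calcium-regulated ATP-magnesium carriers Slc25a23 and Slc25a25 had differences of -0.20 (adjusted p = 0.284) and 0.17 (adjusted p = 0.458). Slc25a41, next to Slc25a23 on chromosome 9, and Slc25a24 were detected on no array.

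**Figure D3:**
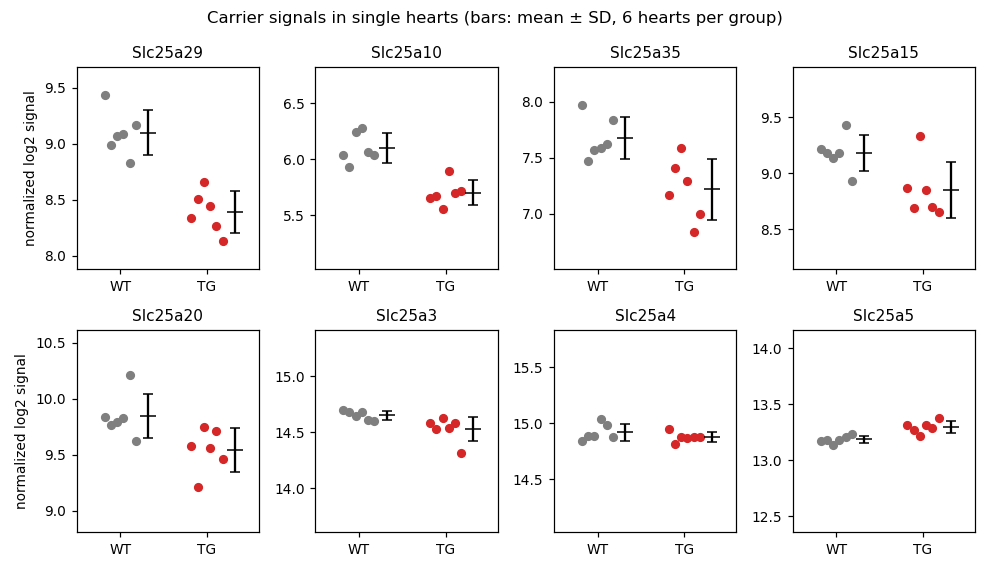
Normalized log2 signal of 8 carriers in each heart, with WT in grey, VEGF-B TG in red, and bars for the mean and SD of 6 hearts; each panel has its own axis position and axes do not start at 0. The groups are apart for Slc25a29 and for Slc25a10, whose TG values are at background, share TG3 for Slc25a15, and coincide for Slc25a4.

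Of the 7 tested carriers of cofactors and nucleotides, 0 were called, where 21.9% of all tested probes were called in either direction. Their differences ran from -0.18 to 0.17. The S-adenosylmethionine carrier Slc25a26, detected on only 7 of the 12 arrays, was at -0.18. Slc25a16, linked to coenzyme A, was at -0.14, and the folate and FAD carrier Slc25a32 at -0.13. Slc25a17, a carrier of the peroxisome and not of the mitochondrion, was at -0.11, and the coenzyme A carrier Slc25a42 at -0.08. The pair on the other side of 0 were Slc25a51, which carries NAD, at 0.17 (SE 0.08, adjusted p = 0.143), and Slc25a39, which carries glutathione, at 0.15 (SE 0.07, adjusted p = 0.115). Slc25a39 has 8 pseudogenes named in GRCr8, and its probe is uncertain for the same reason as that of Slc25a5. Slc25a30, a relative of the uncoupling proteins known from kidney, had the largest positive difference in the family, 0.27 (SE 0.12, adjusted p = 0.127), on the 1 of its 3 probes that was detected.

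Of the 4 tested members with no settled substrate, 1 was called, where 21.9% of all tested probes were called in either direction. All 4 were below 0, as were 51.7% of all tested probes, and Slc25a52 changed sign under median scaling. Slc25a35 had values of 6.84, 7.23 and 7.59 in TG and of 7.47, 7.61 and 7.97 in WT hearts. TG3 was the highest TG heart and the only one above the lowest WT heart. The difference was -0.46 (SE 0.12, 95% interval -0.72 to -0.20, adjusted p = 0.0146). Slc25a34, its close relative, had values of 7.60, 7.71 and 8.31 in TG and 7.75, 8.27 and 8.33 in WT hearts. Both TG3, high among TG hearts, and WT4, low among WT hearts, closed the gap between the groups. Its difference of -0.37 (SE 0.13, adjusted p = 0.056) missed the threshold. Of the 12 fits that each left out 1 array, 2 called it. Those were without TG3 (-0.46, adjusted p = 0.00862) and without WT4 (-0.45, adjusted p = 0.0162), the hearts that closed the gap. Slc25a46, an outer-membrane member that acts in mitochondrial dynamics, was at -0.19 (SE 0.07, adjusted p = 0.09), and Slc25a52 at -0.05 (adjusted p = 0.623).

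The hearts differed in how far the family was from the WT mean. The median deviation of the 25 members from their WT mean was -0.26 in TG1, -0.21 in TG6, -0.17 in TG4, -0.12 in TG5, -0.09 in TG2 and 0.01 in TG3, and it lay between -0.05 and 0.07 in the WT hearts. TG3 was the highest TG heart for 12 of the 25 members, and each other TG heart for 1 to 6. It was the highest for 6 of the 8 members that were lower at an unadjusted p under 0.05, and for 7 of the 8 carnitine shuttle partners. It was so for 0 of the 9 tested endothelial markers and 1 of the 10 cardiomyocyte markers. Among other mitochondrial lists, it was the highest for 2 of 4 ATP synthase subunits and 2 of 6 shuttle enzymes. It was so for only 1 of 11 other mitochondrial transporters, 1 of 11 import genes and 1 of 7 regulators. Slc25a29 was 0.43 below its WT mean in TG3 and stayed below every WT heart there.

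**Figure D4:**
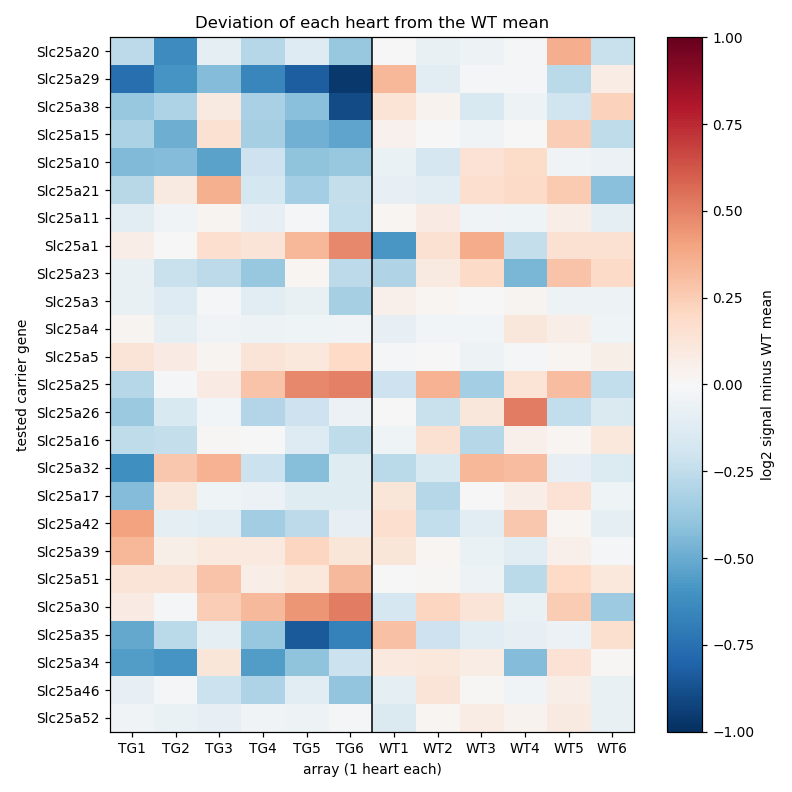
Deviation of each heart from the WT mean (log2, blue lower, red higher) for the 25 tested carriers in rows and the 12 arrays in columns, with TG hearts on the left. The Slc25a29 row is blue in all 6 TG hearts, and the TG3 column is paler than its neighbours, with a median deviation of 0.01.

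Of 11 tested mitochondrial transporters that are not members, 3 were called, where 21.9% of all tested probes were, and the median was -0.04. Of these, 2 were higher, namely the serine transporter Sfxn1 (0.50, SE 0.08, adjusted p = 0.00067) and the sodium-calcium exchanger Slc8b1 (0.43, SE 0.08, adjusted p = 0.00164), and 1 was lower, Mpc2 of the pyruvate carrier (-0.39, SE 0.09, adjusted p = 0.00906). Its partner subunit Mpc1 was at -0.06 (adjusted p = 0.6). Ucp2, Ucp3, Mtch1 and Mtch2, which belong to the same protein family under other symbols, gave 0 calls of 4, and Ucp1 was detected on no array. Of 11 genes of the import route of carrier proteins, 2 were lower, the small chaperones Timm9 (-0.24, SE 0.06, adjusted p = 0.0148) and Timm13 (-0.24, SE 0.07, adjusted p = 0.034). That count, 2 of 11 where 10.3% of all tested probes were lower, fell to 1 or 0 under several settings. Of 7 tested regulators of mitochondrial genes, among them Ppargc1a (0.02) and Ppara (-0.42, SE 0.20, adjusted p = 0.164), 0 were called.

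Markers of the cell types in the tissue are given beside these results. Over all tested probes, 11.6% were called higher and 10.3% lower. Cardiomyocyte markers were lower for 2 of 10 tested genes and higher for 0, with a median of -0.02 and a summed signal of 183000 to 193000 in TG and 177000 to 190000 in WT hearts. Endothelial markers were higher for 6 of 9, with a median of 0.60 and a summed signal of 12100 to 15500 in TG against 8250 to 10400 in WT hearts, and Robo4 was detected on no array. Pericyte and smooth muscle markers were higher for 5 of 6 and lower for 1 (3860 to 5060 against 3440 to 3730, Cnn1 on no array). Of those 5, Rgs5 was detected on 6 TG arrays but 1 WT array, and so met the filter through the group where it was high. Macrophage and leukocyte markers were higher for 4 of 4 (2140 to 3280 against 1670 to 1920). Adgre1 and Itgam were detected on no array, and Ptprc and Cd163 were not tested. Fibroblast markers were lower for 1 of 8, erythroid markers were called for 0 of 4, and adipocyte markers were higher for 1 of 2, with Adipoq and Lep at background on every array. The part of these cells in the carrier differences was not tested. The probe of the rat Vegfb gene was -1.04 (SE 0.58, adjusted p = 0.227), with intensities of 182 to 514 in TG and 219 to 1242 in WT hearts. Whether that probe reads the transgene is not known, so it does not check the labels. Detected probes numbered 8820 to 9655 on TG and 8452 to 9251 on WT arrays, and precision is limited by there being 12 arrays.

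Slc25a29 was between -0.70 and -0.54 under the 10 other settings that kept every array and between -0.76 and -0.64 in the 12 fits that each left out 1 array, and it was called in all of them. Slc25a35 was between -0.46 and -0.26 and between -0.54 and -0.39, and was likewise called in all of them. Slc25a15 was called in 7 of the 10 settings but in only 2 of the 12 fits, and Slc25a10 did not pass the stricter filter on dim probes.

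**Figure D5:**
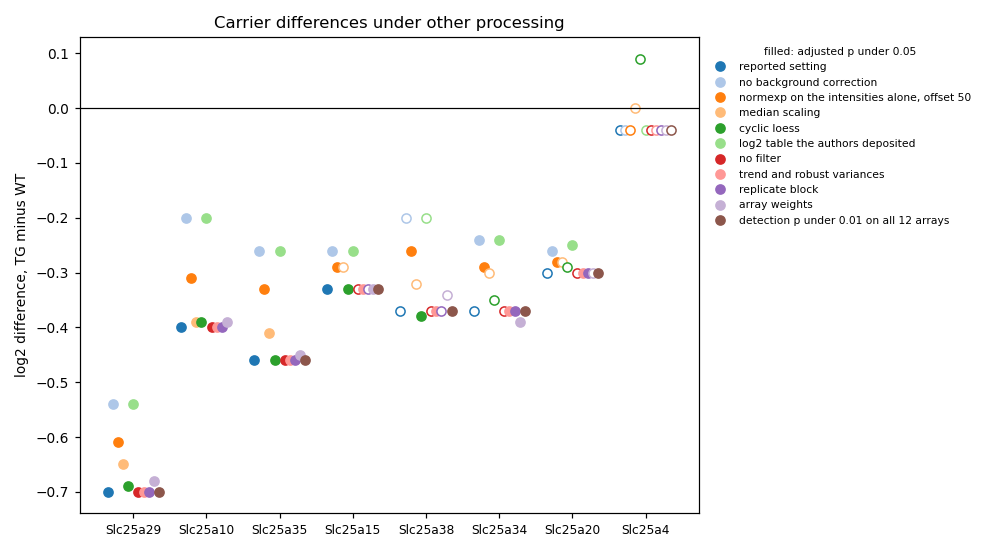
Log2 difference (VEGF-B TG minus WT) of 8 carriers under the reported setting and 10 other ways of processing the same 12 arrays. Filled points passed an adjusted p of 0.05: all of them for Slc25a29 and Slc25a35, those of Slc25a10 resting on TG values at background, and 0 for Slc25a4, whose values lie between -0.04 and 0.09.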

How the data were processed

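RNA from the left ventricle of 6 VEGF-B TG and 6 WT hearts was hybridized to 1 array each, and groups came from the sample titles. The authors deposited bead intensities summarized with GenomeStudio, neither normalized nor background subtracted, together with detection p-values against negative control beads. They also deposited log2 values, quantile normalized in Chipster, which differed by at most 0.005 from log2 quantile values of the intensities and so had no background correction. From the intensities, neqc of limma 3.58.1 in R 4.3.3 (background from the detection p-values, offset 16) gave normalized log2 signals. Probes detected (p under 0.05) on 6 or more of the 12 arrays entered lmFit and eBayes, with Benjamini-Hochberg adjustment over all 9054. Symbols came from the platform annotation, and 13747 were updated through the gene number to GRCr8. A listed gene outside the family that had several probes counted by its brightest tested probe alone, and its other probes are not given. Where a probe was detected on no array of a group, the lowest signal among detected probes of each array gave the bound.

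All members were named, with values of single hearts for those past the threshold and for Slc25a20, Slc25a4 and Slc25a3, the other tested members by difference, and at most 3 genes per partner list by smallest p. Heart values of Slc25a5, Slc25a34 and Slc25a38, and genes named beyond this, were chosen after their values were seen. The members and lists were chosen with earlier results of these data known. The fit was tested on simulated data. Settings tried beside the reported one were no background correction, normexp on the intensities alone (offset 50), median scaling, cyclic loess, the deposited log2 table, no filter, a strict filter (detection p under 0.01 on every array), eBayes with trend and robust estimates, a replicate block, array weights, and each array left out. Probe sequences were not used here. Figures were drawn with matplotlib 3.10.9.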

Additional observations from a re-analysis of the deposited data

Results flagged for a closer look

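Within each group of 6 hearts, 5 values stood apart from the other 5 by a gap that exceeded Dixon's critical value, as a share of the group's range. With 50 groups examined, chance gives about 5% of them. Slc25a15 was 9.33 in TG3, with the other TG hearts at 8.66 to 8.87. Slc25a34 was 7.75 in WT4, with the other WT hearts at 8.20 to 8.33. Slc25a20 was 10.21 in WT5, against 9.62 to 9.84 in the rest of the WT hearts. Slc25a3 was 14.32 in TG6, against 14.53 to 14.63 in the rest of the TG hearts. Slc25a42 was 6.61 in TG1, against 5.86 to 6.13.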

How the results depend on the processing

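The number of lower carriers, 4 as reported, lay between 3 and 7 over the other settings that kept all arrays and between 3 and 7 when an array was left out, and the number of higher carriers was 0 throughout. It was 7 with normexp on the intensities alone and 7 with trend and robust variances, where Slc25a20, Slc25a34 and Slc25a38 were among the calls. Over all tested probes, 1050 were higher (843 to 1092 under other settings, 847 to 1014 with an array left out) and 931 lower (702 to 1009, and 752 to 968). Slc25a4 changed sign under cyclic loess (0.09) and Slc25a52 under median scaling (0.01), and the cause was not tested. Slc25a15 lost its call under median scaling (adjusted p = 0.111) and with no filter (0.0898), the latter with more probes to adjust over.

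The labels do not say that a replicate number marks a shared litter or day, and the numbers were not taken as pairs. Deviations of same-numbered TG and WT hearts correlated between -0.145 and 0.227, above 0.1 for 4 of the 6 numbers, and 3 of 6 correlated best with their own number. With the replicate block, 5 carriers were lower and 0 higher, with Slc25a15 losing its call (adjusted p = 0.0511) and Slc25a20 (0.0298) and Slc25a34 (0.0375) gaining one. A block for the slide was not run, because the headers name no slide. Slc25a10 sits at background in TG hearts, so its fitted difference has no firm size.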
